A study of Homo sapiens with 9 samples.

Results

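Transcripts of 42 genes that build the synaptic vesicle and the machinery for its release were followed across 9 RNA-seq libraries of SH-SY5Y cells. The genes were chosen by symbol for their role in the vesicle cycle, and all 42 matched an identifier among the 61487 gene identifiers counted. SH-SY5Y cells come from a human neuroblastoma and keep traits of young sympathetic neurons. Cells were exposed for 72 h to 20 µM citrinin, 10 µM citrinin or vehicle (0 µM), in MEM/F12 with 15% FBS, and total RNA was sequenced from 3 libraries of each group, numbered as replicates 1, 2 and 3. Citrinin is a mycotoxin of Penicillium, Aspergillus and Monascus moulds, and the series asked which transcripts differ after exposure of these neuron-like cells. Neither the origin of the replicates (separate cultures or not) nor what a shared number stands for is given in the labels, so p-values measure the spread between these libraries, which may be technical.

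A synaptic vesicle is filled with transmitter, held in a reserve pool by synapsins, and brought to the release site by RAB3 GTPases and the scaffold proteins of the active zone. UNC13 and CADPS proteins prime it, the SNARE proteins VAMP2, STX1A and SNAP25 zip its membrane to the plasma membrane, and synaptotagmins trigger the final fusion step when calcium enters. Dynamin, synaptojanin and clathrin adaptors then take the membrane back. Undifferentiated sympathetic neuroblastoma cells use much of the same apparatus for dense core granules that hold noradrenaline and peptides.

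Reads assigned to genes numbered 15678443 to 19604367 per library. On the CPM scale used below (gene reads scaled to library depth with TMM factors) 3 reads make 0.153 to 0.191. Of the 17806 genes with enough reads to test, 38 were members, and 36 of these averaged at least 1 CPM. The other 4 members were close to absent. SV2B, a vesicle glycoprotein of central neurons, had 48 reads over the 9 libraries, and SH3GL2, which encodes endophilin A1, had 5. PPFIA2, which encodes the active zone scaffold liprin-alpha-2, and AMPH, which encodes amphiphysin, a partner of dynamin, had 1 read each. The labelled cell type was checked on sympathetic markers: 13 of 14 were detected well enough to test, while TH, the enzyme that starts catecholamine synthesis, had 3 reads in all. Summed markers of Schwann and glial cells reached 6.77 to 11.0 CPM per library and those of epithelial cells 34.0 to 50.2 CPM. Those of central neurons reached 0.842 to 2.98 CPM, with GAD2 at 0 reads in every library. Cholinergic markers summed to 29.6 to 79.7 CPM. Mesenchymal markers, all 12 of them tested, summed to 3541 to 5616 CPM, and the sympathetic list to 2894 to 4367 CPM. A sum is weighted to its most abundant genes and the lists differ in length, so these sums do not rank the cell states.

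In vehicle cells SYT4 and SYT11, listed with the calcium sensors though they bind calcium poorly, were the most abundant members per exon length. SYT4 reached 87.4 ± 25.8 RPKM (reads per exon length, scaled to library depth; SD, n = 3) and SYT11 52.1 ± 11.9 RPKM. SYT1, the fast calcium sensor, stood at 17.2 ± 2.51 RPKM, and SYT5 was the lowest of its class at 1.62 ± 0.909 RPKM. Among vesicle membrane proteins SV2A, the vesicle glycoprotein bound by the drug levetiracetam, was highest at 25.1 ± 1.42 RPKM, and SYNGR1, a synaptogyrin, was lowest at 2.28 ± 0.336 RPKM. SNAP25, the plasma membrane SNARE, led the fusion machinery at 28.7 ± 16.0 RPKM, and VAMP1, a vesicle SNARE closely related to VAMP2, was lowest there at 4.21 ± 0.299 RPKM. SNAP25 stood at 10.8 RPKM in vehicle replicate 1, 41.5 RPKM in replicate 2 and 33.9 RPKM in replicate 3, so replicate 1 was far under the other libraries.

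RAB3A, a GTPase that docks vesicles, was the highest of the synapsin and RAB3 group at 14.6 ± 1.12 RPKM, and SYN3, the synapsin linked to early neuronal development, was lowest at 0.152 ± 0.076 RPKM. UNC13A, the main priming factor of central synapses, led the active zone group at 5.0 ± 2.36 RPKM. CADPS2, a priming factor of dense core granules, was lowest at 0.0919 ± 0.0738 RPKM. DNM1, the dynamin of neurons, led the endocytosis group at 13.2 ± 0.889 RPKM, and its relative DNM3 was lowest among the tested genes at 0.788 ± 0.104 RPKM. Mean levels of the 9 tested active zone and priming genes thus ran up to 5.0 RPKM, while those of the 8 SNARE proteins and regulators began at 4.21 RPKM. The order of genes could change with the replicate number. The vehicle libraries of SYT1 (15.6 to 20.1 RPKM) lay within the span of the 3 SNAP25 libraries. That span ran from 10.8 RPKM in replicate 1 to 41.5 RPKM in replicate 2.

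**Figure D1:**
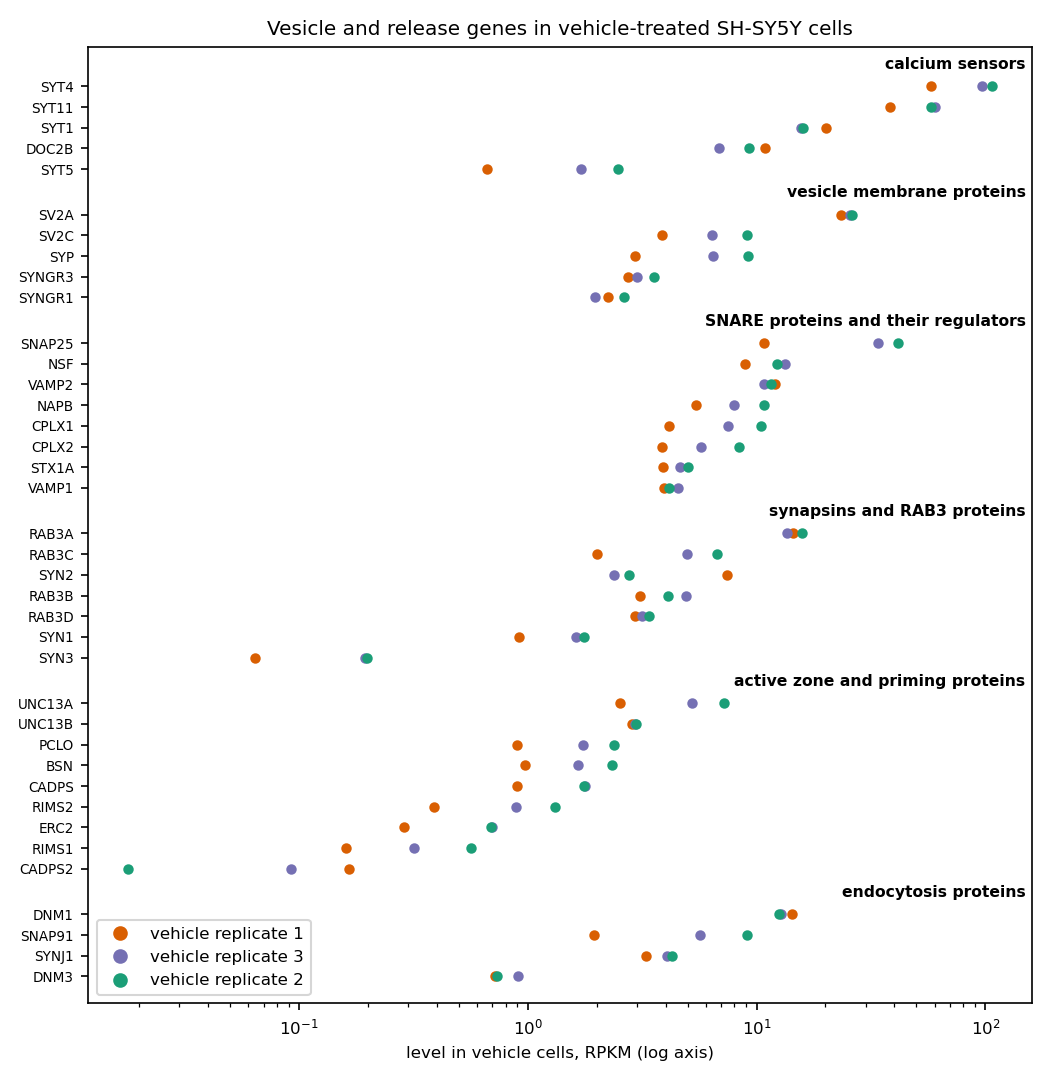
Level of each tested member in the 3 vehicle libraries, in RPKM on a log axis, grouped by role and sorted within a role by mean. Orange points (replicate 1) lie to the left of the green points (replicate 2) for most genes, while SYN2 and CADPS2 run the other way, and SYT4 tops the plot at 87.4 RPKM on average.

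At 20 µM against vehicle, SV2C, RAB3C and SNAP91 were lower, in the analysis that compares libraries of the same replicate number. SV2C is a vesicle glycoprotein related to SV2A, RAB3C is a GTPase of the vesicle surface, and SNAP91 encodes AP180, a clathrin adaptor that helps to set vesicle size. No member was higher. This block on the replicate number was the alternative to a planned comparison without it, and both are given because libraries of the same number resembled each other. Without the block, 0 of 38 tested members passed at an adjusted p of 0.05 (edgeR's quasi-likelihood test, Benjamini-Hochberg), where 0% of all tested genes passed. At an unadjusted p under 0.05 it was 1 member, where 2.17% of all tested genes lay. With the block 3 of 38 members were lower and 0 higher, where 2.21% of all tested genes were called, 1.36% lower and 0.848% higher. At an unadjusted p under 0.05 it was 14 members, where 13.1% of all tested genes lay. The median log2 fold change of the 38 was -0.11, against 0.00 for all tested genes. Over 30 alternative settings this median ran from -0.26 to 0.13, with both ends from leaving out 1 library without the block.

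SV2C (ENSG00000122012, chromosome 5, 76083172 to 76353939, plus strand, GRCh38) had 36.1, 92.9 and 55.3 CPM in 20 µM replicates 1, 2 and 3, against 46.6, 109.6 and 76.6 CPM in vehicle replicates 1, 2 and 3. The groups overlapped, yet each 20 µM library lay under the vehicle library of its own number. The means were 61.4 ± 28.9 CPM at 20 µM and 77.6 ± 31.5 CPM in vehicle (SD, n = 3 each). The log2 differences within replicates 1, 2 and 3 were -0.37, -0.24 and -0.47. In edgeR with the block the log2 fold change was -0.35 ± 0.06 (SE), a fold of 0.784, with adjusted p = 0.00130; without the block it was -0.34 ± 0.45 with adjusted p = 1.0. Without 20 µM replicate 3 the blocked value was -0.30 with adjusted p = 0.0639.

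RAB3C (ENSG00000152932, chromosome 5, 58582221 to 58859394, plus strand) had 14.4, 55.3 and 40.8 CPM in 20 µM replicates 1, 2 and 3, against 19.3, 65.1 and 48.1 CPM in vehicle. Replicate 1 held the lowest value at both doses by a wide margin, so the groups overlapped, with means of 36.8 ± 20.7 CPM at 20 µM and 44.2 ± 23.1 CPM in vehicle. The differences within replicates 1, 2 and 3 were -0.42, -0.23 and -0.24 on the log2 scale. With the block the log2 fold change was -0.28 ± 0.07, a fold of 0.824, with adjusted p = 0.0275 in edgeR; without it, -0.26 ± 0.65 with adjusted p = 1.0. This call was the least stable of the 3: it was kept in 7 of 17 blocked alternatives. It was lost with DESeq2 and without any 1 of vehicle replicates 1, 2 and 3, 10 µM replicate 3 or 20 µM replicates 2 and 3, with adjusted p from 0.0602 to 0.184.

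SNAP91 (ENSG00000065609, chromosome 6, 83552880 to 83709691, minus strand) had 11.1, 40.4 and 31.1 CPM in 20 µM replicates 1, 2 and 3, against 13.0, 60.1 and 37.5 CPM in vehicle. Each library at 20 µM again lay under its same-numbered vehicle library, with log2 differences of -0.22, -0.57 and -0.27, and the groups overlapped. The means were 27.6 ± 15.0 CPM at 20 µM and 36.9 ± 23.6 CPM in vehicle. With the block the log2 fold change was -0.38 ± 0.08, a fold of 0.766, with adjusted p = 0.0103 in edgeR; without it, -0.42 ± 0.69 with adjusted p = 1.0. Without vehicle replicate 2, where SNAP91 was highest, the blocked value was -0.26 with adjusted p = 0.428. The call was also lost without vehicle replicate 3 (adjusted p = 0.0590) and without 20 µM replicate 2 (adjusted p = 0.146).

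**Figure D2:**
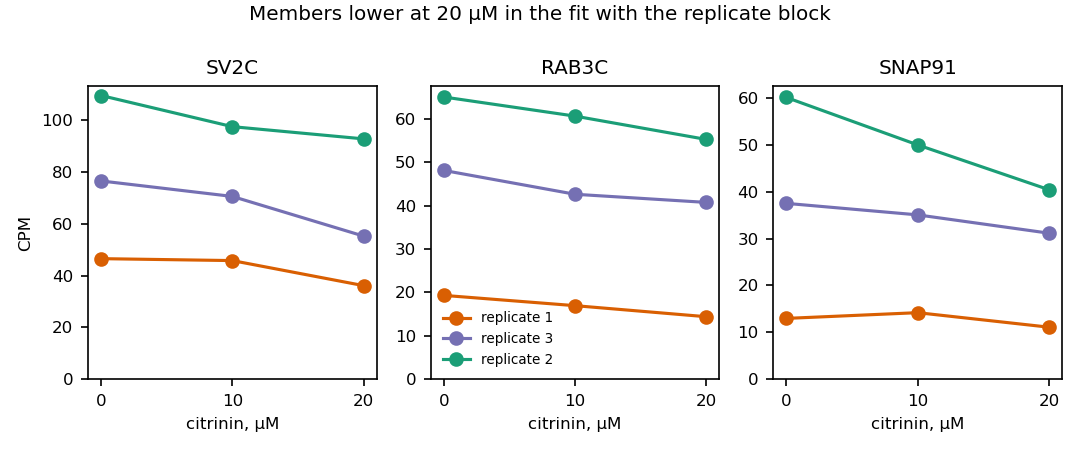
CPM of SV2C, RAB3C and SNAP91 at 0, 10 and 20 µM citrinin, each line joining the libraries of 1 replicate number, on axes that start at 0. Every line ends lower at 20 µM than at 0 µM, and the span of the 3 lines at 0 µM (13.0 to 60.1 CPM for SNAP91) is wider than the fall along any line of the same gene.

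The stretch of 250 bases before the RefSeq start of each of these genes (GRCh38.p14) is shown because the 3 fell together, with matches to 5 short motifs in capitals. The motifs were the RE1 site read by the neuronal gene repressor REST (CAGCACC, any pair of bases, GGACAG), the cyclic AMP response element (TGACGTCA), the antioxidant response element (TGACNNNGC), the GC box (GGGCGG) and the TATA box (TATAAA), searched on both strands. SV2C, chr5:76083133-76083382, plus strand, held GC boxes. RAB3C, chr5:58582825-58583074, plus strand, held no match. SNAP91, chr6:83709102-83709351, minus strand, held GC boxes. Each sequence is written 5′ to 3′ on the gene's strand, and each window lies partly or wholly inside the gene span of GENCODE 29, which places these starts further upstream.
SV2C: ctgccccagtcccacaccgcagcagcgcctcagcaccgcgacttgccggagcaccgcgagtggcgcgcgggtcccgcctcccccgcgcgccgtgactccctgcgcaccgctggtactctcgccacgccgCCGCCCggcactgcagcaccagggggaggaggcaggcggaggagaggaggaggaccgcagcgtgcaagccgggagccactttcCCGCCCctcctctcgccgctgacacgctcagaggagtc
RAB3C: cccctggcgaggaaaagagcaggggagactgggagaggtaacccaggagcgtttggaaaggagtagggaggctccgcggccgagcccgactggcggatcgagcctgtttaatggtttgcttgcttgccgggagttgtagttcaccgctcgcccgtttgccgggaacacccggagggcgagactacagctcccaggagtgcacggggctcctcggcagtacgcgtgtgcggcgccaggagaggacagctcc
SNAP91: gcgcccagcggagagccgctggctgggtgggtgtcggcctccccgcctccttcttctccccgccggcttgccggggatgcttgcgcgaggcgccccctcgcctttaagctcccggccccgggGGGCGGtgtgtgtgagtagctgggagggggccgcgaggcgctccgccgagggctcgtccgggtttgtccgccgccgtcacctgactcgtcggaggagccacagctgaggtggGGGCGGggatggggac

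The other 35 tested members showed values on both sides of 0 at 20 µM, none past the threshold in either fit. In the group listed as calcium sensors, SYT4 had a blocked log2 fold change of -0.17 ± 0.05 with adjusted p = 0.0538 in edgeR. DOC2B, a calcium sensor of slow and spontaneous release, had -0.21 ± 0.07 with adjusted p = 0.102. Of 8 tested SNARE proteins and regulators, 0 passed, with SNAP25 at -0.14 ± 0.06 (adjusted p = 0.267) and NSF at 0.14 ± 0.06 (adjusted p = 0.284). Of 9 tested active zone and priming genes, 0 passed and 8 had a negative value. Within that group RIMS1, the scaffold that ties RAB3 to calcium channels, had -0.75 ± 0.22 with adjusted p = 0.0704.

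RIMS1 was a sparse transcript, with 528 reads over the 9 libraries. It had 0.903, 4.35 and 2.79 CPM in 20 µM replicates 1, 2 and 3, against 2.04, 7.19 and 4.06 CPM in vehicle. All 3 same-numbered differences were negative, at -1.08, -0.71 and -0.52, while the groups overlapped. CADPS, the main priming factor of dense core granules, had -0.30 ± 0.09 with adjusted p = 0.0968. SYN2, a synapsin, had -0.28 ± 0.09 with adjusted p = 0.102. None of these genes passed the test.

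SYNGR3, a synaptogyrin that binds the dopamine transporter, was the single member whose libraries did not overlap at 20 µM, where 3.38% of all tested genes lay wholly higher and 3.33% wholly lower. It had 12.6, 13.4 and 13.8 CPM in 20 µM replicates 1, 2 and 3, against 9.34, 12.2 and 10.2 CPM in vehicle. Its 10 µM libraries, at 12.4, 14.6 and 13.2 CPM, also lay above the same vehicle libraries, where 2.07% of tested genes did so and 1.95% lay wholly lower. The value did not pass the test: with the block it was 0.33 ± 0.11 at 20 µM with adjusted p = 0.147 in edgeR.

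Across the members, 18 of 38 (47.4%) were lower at 20 µM in all 3 same-numbered pairs, against 17.8% of all tested genes, and 6 were higher in all 3, or 15.8%, against 17.3% of all tested genes. The median difference of the 38 was -0.02 within replicate 1, -0.09 within replicate 2 and -0.08 within replicate 3. Of the general sympathetic markers, 10 of 13 tested were lower at 20 µM with the block and 0 higher. Of all tested genes 1.36% were lower and 0.848% higher in that fit. Without the block 0 of the 13 markers passed. Their summed level was 2894 to 3804 CPM at 20 µM, against 3525 to 4367 CPM in vehicle, and these ranges overlap. Mesenchymal markers summed to 3928 to 5616 CPM at 20 µM and 3582 to 5274 CPM in vehicle. With the block 3 of 12 were higher and 0 lower, while 8 of the 12 had a negative value and the list's median was -0.04. Without the block 0 of the 12 passed. The part of either list in the values above was not tested, and fewer cells of a type and less RNA per cell cannot be told apart in bulk libraries.

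The longest transcript of each tested member had a median of 4628 bases, against 3236 bases for all tested genes. All members are protein-coding, and the median over all tested protein-coding genes was 3745 bases. Genes lower at 20 µM in the blocked fit had a median of 5770 bases and genes higher 3528 bases. The part of transcript length in the members' values was not tested.

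At 10 µM against vehicle, 0 of 38 members passed in either fit, where 0.0337% of all tested genes were called with the block and 0% without it. An unadjusted p under 0.05 was found for 4 members with the block and 1 without it, where 3.59% and 0.646% of all tested genes had one. SV2C had 45.8, 97.6 and 70.6 CPM in 10 µM replicates 1, 2 and 3, which lie between its vehicle and 20 µM values within each number. RAB3C had 16.9, 60.7 and 42.6 CPM and SNAP91 had 14.2, 49.99 and 35.1 CPM in the same libraries. The blocked log2 fold changes were -0.11 ± 0.06 for SV2C, -0.15 ± 0.07 for RAB3C and -0.12 ± 0.08 for SNAP91, each with adjusted p = 1.0 in edgeR. The median over the 38 was 0.01 with the block. In all 3 same-numbered pairs 13 of 38 members (34.2%) were lower, against 13.5% of all tested genes. Another 5 (13.2%) were higher in all 3, against 12.0% of all tested genes. The median difference was -0.03, -0.02 and -0.01 within replicates 1, 2 and 3.

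At 20 µM against 10 µM, 0 of 38 members passed in either fit, where 0.444% of all tested genes were called with the block and 0% without it. An unadjusted p under 0.05 was found for 3 members with the block and 0 without it, where 8.81% and 1.18% of all tested genes had one. SV2C came nearest, at -0.24 ± 0.06 with adjusted p = 0.0816. SNAP91 had -0.27 ± 0.08 with adjusted p = 0.224 and RAB3C -0.13 ± 0.07 with adjusted p = 0.625. VAMP1 was the single member whose libraries lay apart, at 14.0, 14.2 and 13.0 CPM in 20 µM replicates 1, 2 and 3, against 15.7, 14.8 and 16.0 CPM at 10 µM, where 2.52% of tested genes lay wholly lower; its exons overlap those of TAPBPL over 9.47% of their length. In all 3 same-numbered pairs 11 of 38 members (28.9%) were lower at 20 µM than at 10 µM, against 14.0% of all tested genes. Only 2 (5.26%) were higher in all 3, against 13.2% of all tested genes. The dose comparisons share libraries, so their values are set side by side and not compared further.

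Levels of most of these genes differed far more between replicate numbers than between doses. The share of variance between numbers was the larger for 36 of the 38 tested members. SYNGR3 (24.7% between numbers, 66.2% between doses) and VAMP1 (3.69% and 57.7%) went the other way. Of the variance in log2 CPM of the 38 tested members, 90.4% lay between replicate numbers and 4.22% between doses, while over all tested genes 62.2% and 13.6% did, with noise between libraries not subtracted. In replicate 1 against replicates 2 and 3, with dose as a covariate, 33 of 38 members were called (edgeR, adjusted p below 0.05), where 41.5% of all tested genes were. In comparisons of replicate numbers the libraries of a number at different doses serve as its replicates. Their SE and p-values thus measure the spread within a number across doses, and not the spread between numbers. Of the members 27 were lower and 6 higher, where 21.3% of all tested genes were lower and 20.2% higher. The median log2 fold change of the 38 was -0.70, against 0.01 for all tested genes. Of the genes not called, SYNGR1, SYNGR3, VAMP1, RAB3D and DNM3, VAMP1 lay closest to no difference, at -0.02 ± 0.09.

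**Figure D3:**
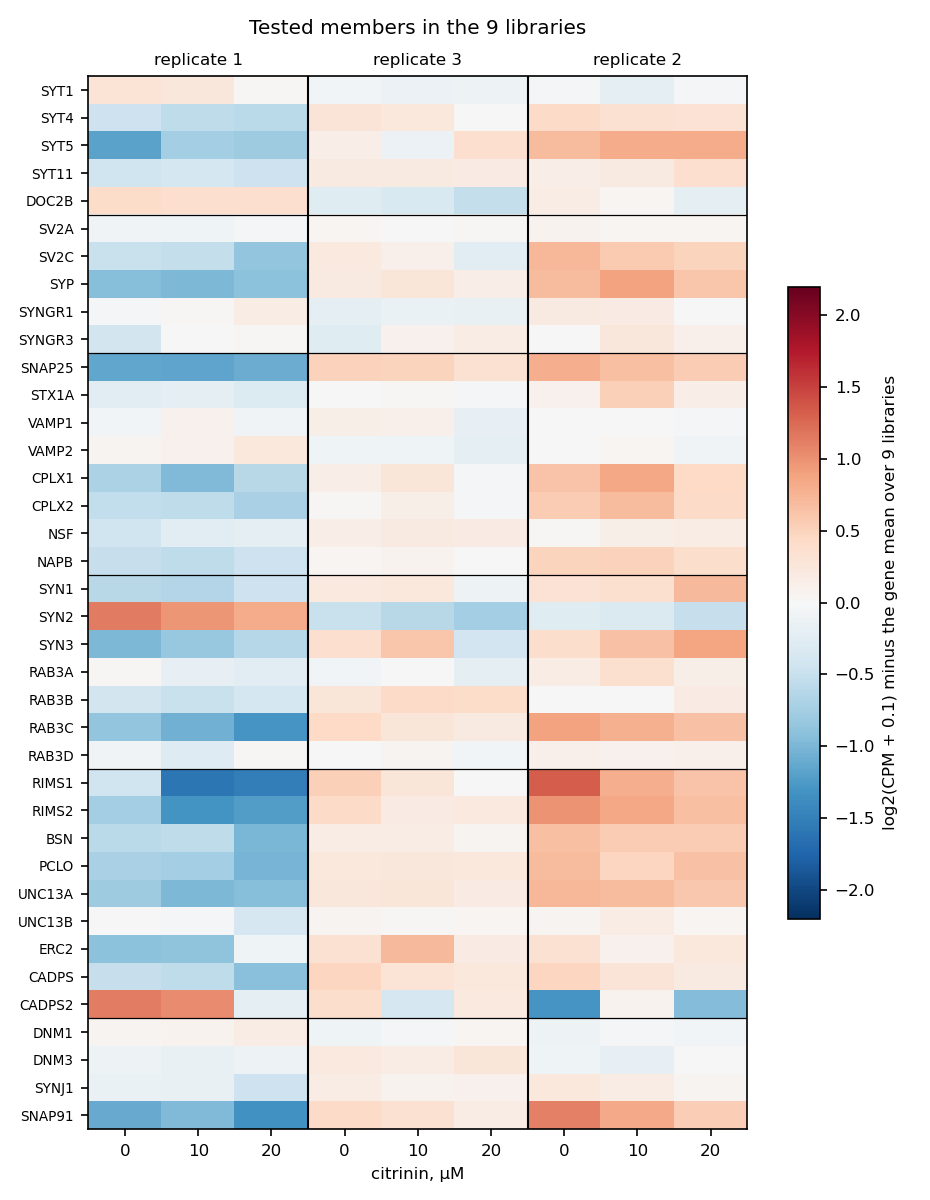
Log2(CPM + 0.1) of the 38 tested members minus each gene's mean over the 9 libraries, with genes in rows by role and libraries in columns by replicate number and dose. Blue (low) fills most of the replicate 1 columns and red (high) most of the replicate 2 columns, with SYN2, DOC2B and CADPS2 running the other way and dose making little difference within a block of columns.

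SNAP25, cut by botulinum toxins A and E, had 36.2, 35.8 and 37.5 CPM in replicate 1 at 0, 10 and 20 µM. It had 114, 113 and 100.3 CPM in replicate 3 and 139, 127 and 118 CPM in replicate 2 at the same doses. The replicate 1 libraries lay apart from all others, and the log2 fold change of replicate 1 against replicates 2 and 3 was -1.69 ± 0.06 with adjusted p = 8.4e-19 in edgeR. SNAP91 averaged 12.7 ± 1.56 CPM in replicate 1, 34.6 ± 3.21 CPM in replicate 3 and 50.2 ± 9.84 CPM in replicate 2 (SD over the 3 doses), a log2 fold change of -1.70 ± 0.08. RAB3C averaged 16.9 ± 2.46, 43.9 ± 3.84 and 60.4 ± 4.90 CPM in replicates 1, 3 and 2, a change of -1.61 ± 0.07. Both RIM scaffolds were lower too. RIMS1 averaged 1.27 ± 0.669 CPM in replicate 1, 3.40 ± 0.634 CPM in replicate 3 and 5.49 ± 1.5 CPM in replicate 2, a change of -1.78 ± 0.22.

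RIMS2 averaged 4.23 ± 0.945 CPM in replicate 1, 10.9 ± 1.04 CPM in replicate 3 and 16.2 ± 1.83 CPM in replicate 2, a change of -1.66 ± 0.12. Of the active zone and priming genes, 8 of 9 tested were lower in replicate 1, with a median of -1.08, the lowest median of the 6 roles. UNC13A stood at -1.36 ± 0.06 and PCLO, the giant scaffold piccolo, at -1.25 ± 0.07, while UNC13B, a relative of UNC13A found in many tissues, stood at -0.20 ± 0.06 and lost its call without 20 µM replicate 1 (adjusted p = 0.229). Of the SNARE proteins and regulators 6 of 8 were lower, with the complexins CPLX1 and CPLX2 at -1.15 ± 0.11 and -0.90 ± 0.06. Their summed level was 215 to 227 CPM in replicate 1, 327 to 356 CPM in replicate 3 and 383 to 423 CPM in replicate 2.

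SYN2 ran against the rest. It had 42.4, 37.6 and 33.8 CPM in replicate 1 at 0, 10 and 20 µM, against 13.5, 12.4 and 11.3 CPM in replicate 3 and 15.7, 15.3 and 13.4 CPM in replicate 2. All 3 replicate 1 libraries lay above all others, with a log2 fold change of 1.48 ± 0.07 and adjusted p = 1.9e-15 in edgeR. SYN1 and SYN3, the other synapsins, were lower in replicate 1, at -0.88 ± 0.16 and -1.43 ± 0.40. DOC2B was also higher in replicate 1, with 69.4 ± 0.739 CPM there, 41.2 ± 3.75 CPM in replicate 3 and 53.4 ± 7.10 CPM in replicate 2, a change of 0.57 ± 0.06 with adjusted p = 4.8e-09. SYT1 averaged 121 ± 12.2, 98.4 ± 2.61 and 99.4 ± 6.75 CPM in replicates 1, 3 and 2, a change of 0.29 ± 0.05. VAMP2, the main vesicle SNARE, averaged 41.1 ± 2.49, 34.3 ± 1.42 and 37.4 ± 1.63 CPM in the same order, a change of 0.20 ± 0.06 that lost its call without 20 µM replicate 1 (adjusted p = 0.208). DNM1 averaged 158 ± 5.94, 144 ± 7.14 and 140.01 ± 3.88 CPM, a change of 0.15 ± 0.04 with adjusted p = 0.0037. These 4 genes and SYN2 are the members whose replicate 1 libraries lay wholly above all others. CADPS2 was called higher, at 1.21 ± 0.47 with adjusted p = 0.0400, from 78 reads over the 9 libraries, but its libraries overlapped and it passed in 5 of 16 alternatives. Its call was lost without any 1 of vehicle replicates 1, 2 and 3, 10 µM replicates 1 and 3 or 20 µM replicate 2, with adjusted p from 0.0554 to 0.260.

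**Figure D4:**
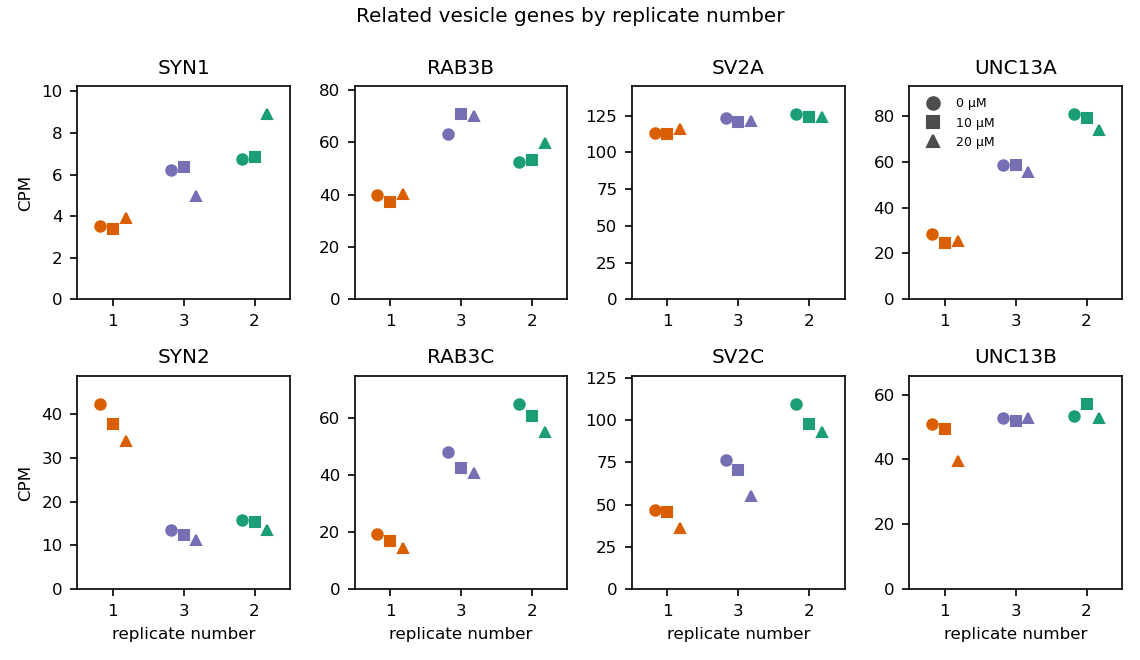
CPM of 4 pairs of related genes (synapsins, RAB3 GTPases, SV2 glycoproteins and UNC13 priming factors) by replicate number, with 1 symbol per dose and axes that start at 0. SYN2 is highest in replicate 1 while SYN1 is lowest there, and SV2A and UNC13B span a narrow range across numbers where SV2C and UNC13A do not.

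The replicate 1 difference varied between close relatives. SV2A had 113 to 116 CPM in replicate 1, 121 to 123 CPM in replicate 3 and 124 to 126 CPM in replicate 2, a log2 fold change of -0.11 ± 0.04 in replicate 1. SV2C averaged 42.8 ± 5.82 CPM in replicate 1, 67.5 ± 11.0 CPM in replicate 3 and 100.03 ± 8.65 CPM in replicate 2, a change of -0.94 ± 0.06. The SV2A call was kept in 6 of 16 alternatives and was lost without any 1 of vehicle replicates 1, 2 and 3, 10 µM replicates 1 and 3 or 20 µM replicate 3, with adjusted p from 0.0662 to 0.194. RAB3A stood at -0.19 ± 0.08 with adjusted p = 0.046, and its libraries overlapped. It passed in 5 of 16 alternatives and lost its call without vehicle replicate 3 or any 1 of the 10 µM and 20 µM libraries, with adjusted p from 0.0698 to 0.403. RAB3D was not called, at -0.16 ± 0.09. RAB3D and STX1A share 24.9% and 17.9% of their exon length with other genes.

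The promoters of SYN1 and SYN2 are shown because these synapsins lay on opposite sides of the replicate 1 comparison, with matches in capitals as before. SYN1, chrX:47619858-47620107, minus strand, held the RE1 letters and the cyclic AMP response element. SYN2, chr3:12004138-12004387, plus strand, held 4 GC boxes and the antioxidant response element letters.
SYN1: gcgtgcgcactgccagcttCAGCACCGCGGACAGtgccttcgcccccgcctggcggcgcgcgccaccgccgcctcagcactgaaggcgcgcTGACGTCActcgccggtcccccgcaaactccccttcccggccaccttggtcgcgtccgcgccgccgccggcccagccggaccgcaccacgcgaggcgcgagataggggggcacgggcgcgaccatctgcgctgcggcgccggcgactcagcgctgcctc
SYN2: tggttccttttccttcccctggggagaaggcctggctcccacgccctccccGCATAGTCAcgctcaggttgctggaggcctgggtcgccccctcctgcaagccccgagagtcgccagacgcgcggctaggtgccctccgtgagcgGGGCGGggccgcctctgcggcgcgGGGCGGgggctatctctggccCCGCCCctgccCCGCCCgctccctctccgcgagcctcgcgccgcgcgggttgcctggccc

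Of the 42 members, 35 matched a RefSeq promoter of 300 bases (250 before the start and 50 after), among them the 4 members too sparse to test. The RE1 letters were in 1 of the 35, SYN1, or 2.86%, against 0.0513% of all 27305 promoters. The cyclic AMP response element was in 2, SYN1 and SH3GL2, or 5.71%, against 1.98%, and SH3GL2 had only 5 reads over the 9 libraries. GC boxes were in 26, or 74.3%, against 44.6%, the antioxidant response element letters in 4 (VAMP1, SYN2, UNC13A and DNM3), or 11.4%, against 13.6%, and the TATA box in 0, against 12.0%. Median GC content was 68.3% in the members' promoters and 58.3% in all promoters, and the GC box holds no other base than G and C.

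In replicate 3 against replicate 2, 18 of 38 members were called (edgeR, adjusted p below 0.05), where 11.7% of all tested genes were. Of the members 17 were lower and 1 higher, where 5.88% of all tested genes were lower and 5.86% higher, with a median of -0.26 against 0.00. SV2C had the smallest adjusted p of the members, 1.2e-07, at -0.57 ± 0.06. SYT5 averaged 9.03 ± 1.55 CPM in replicate 3 and 14.1 ± 0.734 CPM in replicate 2, a change of -0.65 ± 0.13 that lost its call without 10 µM replicate 3 (adjusted p = 0.0502). RIMS1 stood at -0.67 ± 0.20, RIMS2 at -0.56 ± 0.11 and SNAP91 at -0.53 ± 0.08. RIMS2 and SNAP91 passed in 16 of 16 alternatives and RIMS1 in 6 of 16. The RIMS1 call was lost without any 1 of vehicle replicates 2 and 3, 10 µM replicates 2 and 3 or 20 µM replicates 2 and 3, with adjusted p from 0.0548 to 0.275. Libraries of replicate 3 lay wholly below those of replicate 2 for 23 members and wholly above for 2, RAB3B and DNM3, where 14% and 13.4% of all tested genes did. RAB3B, a RAB3 GTPase of endocrine cells, was the member that was higher. It had 63.1, 70.9 and 70.0 CPM in replicate 3 at 0, 10 and 20 µM, against 52.6, 53.2 and 59.8 CPM in replicate 2, a change of 0.30 ± 0.06 with adjusted p = 0.0013, or 0.0588 without 10 µM replicate 3. The means of 25 of 38 members (65.8%) ran from replicate 2 down through replicate 3 to replicate 1, against 20.5% of all tested genes.

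Libraries of replicate 1 did not overlap those of replicates 2 and 3 for 26 members on the lower side and 5 on the higher side, where 16.2% and 14.8% of all tested genes lay apart in those directions. The pattern held at each dose: the median difference of replicate 1 was -0.66 at 20 µM, -0.78 at 10 µM and -0.69 in vehicle. Mesenchymal markers summed to 4907 to 5125 CPM in replicate 1, 5229 to 5616 CPM in replicate 3 and 3541 to 3928 CPM in replicate 2, and sympathetic markers to 3804 to 4190 CPM, 2894 to 3525 CPM and 3624 to 4367 CPM in that order. In replicate 1 against the rest 8 of 12 mesenchymal markers were higher and 2 lower. Of 13 sympathetic markers 8 were higher and 5 lower. Among all tested genes 20.2% were higher and 21.3% lower in that comparison. Of 3 cholinergic markers, 1 was lower in replicate 1 and CHAT and SLC18A3 were not called, at 0.45 ± 0.34 and 0.12 ± 0.08 with libraries that overlapped. The one that was lower, SLC5A7, the choline transporter of cholinergic neurons, had 4.64 to 4.84 CPM in replicate 1, 37.6 to 47.8 CPM in replicate 3 and 52.8 to 54.8 CPM in replicate 2. The part of these markers in the members' values was not tested.

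**Figure D5:**
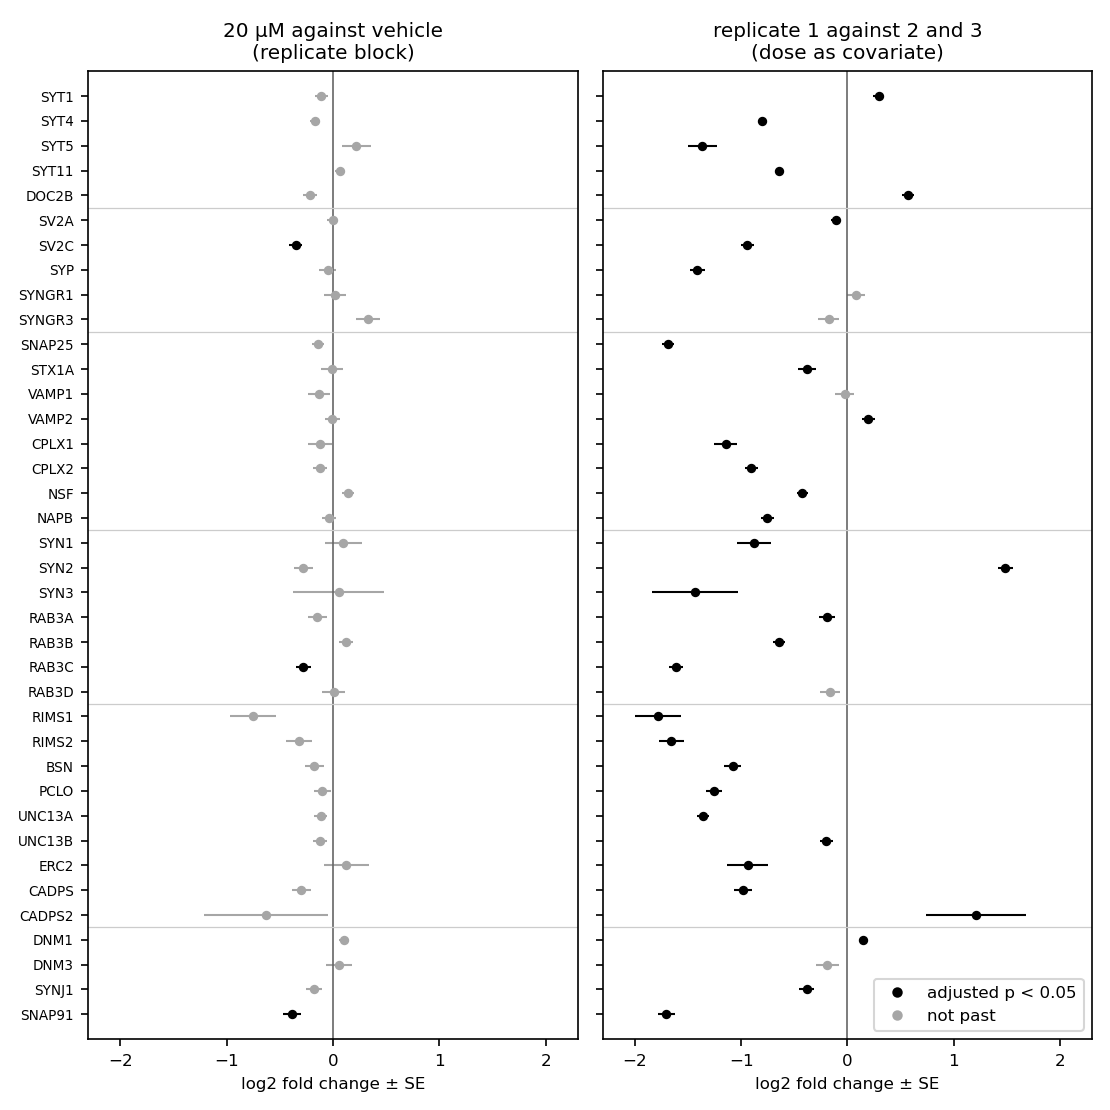
Log2 fold change with SE of each tested member at 20 µM against vehicle with the replicate block (left) and in replicate 1 against replicates 2 and 3 with dose as covariate (right), both on the same axis. Black points passed an adjusted p of 0.05: 3 on the left, all negative, and 33 on the right, of which 27 are negative and SYN2, at 1.48, lies farthest to the positive side.

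Beyond the members, 118 other genes of the vesicle cycle were listed and 103 were tested. At 20 µM against vehicle with the block 4 were lower (3.88%) and 2 higher (1.94%), where 1.36% and 0.848% of all tested genes were, with a median of -0.01, and without the block 0 passed. RPH3A, which encodes the RAB3 effector rabphilin, was lower at -0.44 ± 0.08 with adjusted p = 0.00095 in edgeR, SYT7, the calcium sensor of slow release and facilitation, at -0.42 ± 0.08 with adjusted p = 0.0024, and RIMBP2, which links RIM to calcium channels, at -0.26 ± 0.05 with adjusted p = 0.0022. RAB27B, a GTPase of secretory granules, was higher at 0.52 ± 0.11 with adjusted p = 0.012. At 10 µM 0 passed. At 20 µM against 10 µM SYT7 and RPH3A were lower with the block (1.94%, where 0.444% of all tested genes were called in either direction). The alternative settings were run for the members only, so none of the calls among these other genes was put through them.

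RPH3A had 17.9, 48.0 and 46.3 CPM in 20 µM replicates 1, 2 and 3, against 21.5, 74.6 and 59.9 CPM in vehicle. SYT7 had 12.0, 48.2 and 33.7 CPM at 20 µM, against 12.7, 70.0 and 47.3 CPM in vehicle. Both sets of groups overlapped, and both genes had their lowest levels in replicate 1, as RAB3C and SNAP91 did. In replicate 1 against replicates 2 and 3, 51 of the 103 were lower (49.5%) and 16 higher (15.5%), where 21.3% and 20.2% of all tested genes were, with a median of -0.16. In replicate 3 against replicate 2, 15 were lower (14.6%) and 7 higher (6.80%), where 5.88% and 5.86% of all tested genes were, with a median of -0.03.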

How the data were processed

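RNA-seq counts of 9 SH-SY5Y libraries were used, and replicate numbers and groups came from the sample titles. FastQC, cutadapt, STAR and edgeR were used on GRCh38, per the submitters' processing notes. Their versions and the annotation were not given in the sources used here. Raw counts per gene were deposited, with both strands joined and each strand apart. The joint count was used. The ratio of reads between strands was 0.981 to 0.993 per library, so the strand columns would not tell overlapping genes apart either. Reads on exons shared by genes count as ambiguous and are left out. Both strand columns together held 1.82 times the joint count for RAB3D, 1.53 for STX1A, 1.32 for VAMP1 and 1.18 for SYP. Levels of these members are thus probably too low. The authors also deposited a log2 table, of which 100% of values lay within 1e-06 of log2 CPM recomputed from the counts. Assigned reads were 76.4% to 78.0% of each library, and ambiguous ones 9.51% to 10.1%. The read floors given cover counting error only.

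The members, lists and tests were chosen with earlier results of these data known. Of 36838 genes with a read, 17806 passed edgeR's filterByExpr. All 9 libraries entered edgeR's quasi-likelihood test (robust) (R 4.3.3, edgeR 4.0.16), Benjamini-Hochberg adjusted over all tested genes, with 3 groups and no block, which left 6 residual degrees of freedom. Same-numbered libraries deviated from their dose means together in 9 of 9 pairs (r of 0.457 to 0.685, against -0.545 to 0.139 between numbers). Deviations cancel within each dose, so r between numbers falls as r within numbers rises and is not a separate sign. A second fit, blocked on the replicate number, therefore stands beside the first, with 4 residual degrees of freedom. Replicate-number comparisons held dose as a covariate. SE is the log2 fold change divided by the root of the F statistic. RPKM used the union of exons in GENCODE 29, which holds 58312 of 61487 identifiers. Scripts were tested on simulated counts. Alternatives were DESeq2 1.42.0, limma 3.58.1 on the log2 table, RLE factors, no filter, and leaving out libraries, replicate numbers or doses. Named genes were all members past the threshold in a dose comparison, the 5 highest and 5 lowest changes in the replicate 1 comparison averaging at least 1 CPM, the highest and lowest RPKM per role, untested members, and up to 4 other vesicle genes with the smallest adjusted p. Members close to the threshold, those whose groups did not overlap and relatives of named genes were added after their values were seen. Promoters are from RefSeq on GRCh38.p14.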

Additional observations from a re-analysis of the deposited data

How the results depend on the processing

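Without the replicate block every alternative called 0 members in the 3 dose comparisons. At 20 µM against vehicle the replicate block called 3, also with RLE factors; it called 4 without the filter, 2 with DESeq2, 4 with limma on the log2 table, 5 without 10 µM replicate 1 or all of replicate 1, and 0 to 6 when a library or a replicate number was left out, lowest without replicate 3 and highest without 10 µM replicate 2 or 20 µM replicate 1. At 20 µM against 10 µM the block called 1 without the filter and 0 to 1 in leave-outs; at 10 µM it called 0 throughout. SV2C, SNAP91 and RAB3C were lower at 20 µM in all 17 blocked alternatives and past the threshold in 15, 12 and 7 of them. SV2C lost its call without 20 µM replicate 3 (adjusted p = 0.0639) and without all of replicate 3 (adjusted p = 0.30). SNAP91 lost it without vehicle replicate 2 or 3, 20 µM replicate 2, or all of replicate 2 or 3 (up to 0.428). RAB3C lost it with DESeq2 (0.0686), without any 1 vehicle library, 10 µM replicate 3 or 20 µM replicate 2 or 3, and without all of any 1 number (up to 0.373). Leaving out a library without the block unbalances the numbers, and log2 fold changes then ranged, at 20 µM against vehicle, from -0.68 to 0.13 for RAB3C and -0.82 to 0.13 for SNAP91; at 10 µM, from -0.41 to 0.21 for SV2C, -0.56 to 0.24 for RAB3C and -0.58 to 0.39 for SNAP91; and at 20 µM against 10 µM, from -0.64 to 0.075, -0.53 to 0.30 and -0.64 to 0.16 for the same genes. With the block SNAP91 at 10 µM was 0.0061 without vehicle replicate 2. The median over the members ran from -0.26 (without 20 µM replicate 2) to 0.13 (without vehicle replicate 2) at 20 µM against vehicle. It ran from -0.15 to 0.17 at 10 µM and from -0.28 to 0.088 at 20 µM against 10 µM. All these ends came from leaving out 1 library without the block. The replicate 1 comparison called 29 to 33 members over its alternatives and replicate 3 against replicate 2 called 12 to 20. Genes under about 1 CPM (SYN3 and CADPS2) are limited by depth, and CADPS2 passed in 5 of 16 alternatives. In the replicate 1 comparison RAB3A passed in 5 of 16 and SV2A in 6 of 16; in replicate 3 against replicate 2 RIMS1 passed in 6 of 16, RAB3A in 7, SYT4 in 10 and SNAP25 in 12.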
